A study of Mus musculus with 2 samples.

Results

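Neurotrophins and their receptors were read in the transcriptome of mouse dorsal root ganglion (DRG) sensory neurons. The members were 6 genes chosen by symbol, namely the ligand genes Bdnf and Ntf3 and the receptor genes Ntrk2, Ntrk3, Ngfr and Sort1. They took up 22 of the 35034 RefSeq transcript rows of the files and 6 of the 24411 gene symbols. The study examined what sensory neurons express in mice immunized with keyhole limpet hemocyanin (KLH), a large foreign protein used as an antigen, and RNA-seq described the neuron preparations. Both groups were male C57BL/6 mice (C57BL/6J in the study's methods), 6 to 8 weeks old. The control group (alum) received intraperitoneal injections of 50% alum, an adjuvant, in 200 µl saline on days 0 and 14, and the immunized group (alum + KLH) received the same with 100 µg KLH added. The label of the control library calls it both naïve and alum alone, and it is taken here as alum-injected. Thoracic and lumbar DRGs were taken 14 days after the last injection (day 28), digested with collagenase and dispase, enriched for neurons by centrifugation through albumin and depleted of B cells with magnetic beads. The cells of 10 mice were pooled in each group and gave 1 library, so no value below has an error between mice and no difference has a replicate check or a test.

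Neurotrophins are secreted growth factors, made as longer precursors, that keep sensory neurons alive during development and tune their excitability in the adult. Brain-derived neurotrophic factor (BDNF, from Bdnf) acts through the receptor tyrosine kinase TrkB (Ntrk2), and neurotrophin-3 (NT-3, from Ntf3) acts mainly through TrkC (Ntrk3). Both Trk genes also give truncated receptors that bind the ligand but lack the kinase. The p75 receptor (Ngfr) binds every neurotrophin and, together with sortilin (Sort1), binds the uncleaved precursors. In the DRG, TrkC is known from proprioceptors and TrkB from several classes of touch neuron, while Bdnf is made by sensory neurons themselves.

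The forms of the receptors differ in their sequences at the following places, which are shown because the transcript values below turn on them. Each sequence runs 5′ to 3′ on the coding strand of GRCm38, with 30 bases of coding sequence that both forms share in lower case, followed in capitals by the first bases of the exon that the other form lacks. In Ntrk2 the forms part after 1393 coding bases. The kinase-containing transcript NM_001282961 goes on into an exon of 189 bases, of which the first 60 are given (chr13:58985802-58985861, plus strand). The truncated transcript NM_008745 ends in an exon that lies closer to the shared part of the gene, and its 38 coding bases up to the stop codon TAG are given (chr13:58932023-58932060, plus strand).
NM_001282961: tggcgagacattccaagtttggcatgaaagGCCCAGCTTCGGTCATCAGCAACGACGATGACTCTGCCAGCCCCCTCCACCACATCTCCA
NM_008745: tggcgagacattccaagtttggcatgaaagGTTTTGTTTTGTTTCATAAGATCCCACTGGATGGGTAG
In Ntrk3 the forms part after 1585 coding bases. For the kinase-containing NM_008746 the first 75 of 131 exon bases are given (chr7:78260340-78260414, minus strand), and for the truncated NM_182809 the first 75 of 135 (chr7:78304352-78304426, minus strand).
NM_008746: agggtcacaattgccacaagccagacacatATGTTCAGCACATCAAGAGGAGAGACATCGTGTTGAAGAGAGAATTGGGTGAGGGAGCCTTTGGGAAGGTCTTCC
NM_182809: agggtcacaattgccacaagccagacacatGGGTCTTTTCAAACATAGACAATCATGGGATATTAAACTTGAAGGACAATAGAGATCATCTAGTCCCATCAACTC
In Sort1, the transcript NM_001271599 holds an exon of 99 bases that NM_019972 lacks, entered after 2244 coding bases (chr3:108355472-108355570, plus strand). The lower-case bases on either side are shared.
NM_001271599: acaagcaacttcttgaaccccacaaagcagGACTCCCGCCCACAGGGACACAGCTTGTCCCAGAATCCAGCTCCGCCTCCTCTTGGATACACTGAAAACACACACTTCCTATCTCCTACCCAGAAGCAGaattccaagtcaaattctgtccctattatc

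The pools were rich in neuronal transcripts. All 6 neuron markers were over 3 TPM (transcripts per 1000000, a level per transcript length that sums to 1000000 in each library), the level the study took as detected, and their sums were 11554 TPM in the alum pool and 11523 TPM in the alum + KLH pool, led by the neurofilament gene Nefl at 5259 and 5048 TPM. Glial transcripts were present too. The 6 satellite glia markers summed to 1776 and 1653 TPM, led by Fabp7 (952.6 and 888.1 TPM), and the 7 Schwann cell markers to 1886 and 1858 TPM, led by Pmp22 (1062 and 1021 TPM). Endothelial and pericyte markers summed to 182.8 and 170.3 TPM, led by Rgs5 (172.2 and 162.4 TPM), and fibroblast markers to 77.8 and 78.4 TPM, led by Dcn (63.8 and 62.6 TPM). None of the 4 macrophage markers (highest Aif1, 1.15 and 0.496 TPM) or the 3 B lymphocyte markers (highest Cd79a, 0.508 and 0.131 TPM) passed 3 TPM in either pool, and 1 of the B lymphocyte markers was listed at 0 in both. The sums hide larger differences of single markers, such as the neuronal Rbfox3 (60.8 and 44.6 TPM, log2 ratio of alum + KLH over alum with 1 TPM added -0.44) and Apoe of the satellite glia list (131.9 and 91.5 TPM, -0.52), which were chosen after their values were seen.

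Summed over the transcripts of each gene, 5 of the 6 members were detected in both pools and 1 was not. Ntrk2 was highest with 94.9 TPM in the alum pool and 95.8 TPM in the alum + KLH pool, and 9.18% and 9.09% of all genes had a higher total. Ngfr had 87.9 and 75.7 TPM, and Bdnf had 85.3 and 88.3 TPM. The receptor TrkB, its ligand gene and p75 therefore lay within a narrow band in each pool. Ntrk3 followed at 29.1 and 28 TPM, with 21.7% and 21.9% of genes above it, and Sort1 at 16.5 and 17.7 TPM, with 28.4% and 27.2% above it. Ntf3 was last at 1.03 and 0.993 TPM, under the detection level in both pools. The ligand genes thus lay far apart, with 83.2 times as much Bdnf as Ntf3 in the alum pool and 88.9 times in the alum + KLH pool.

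With no replicates, distances between genes were set beside the neighbour SD. This is the SD of the log2 ratio between the pools over the 500 gene totals closest in level. It measures how far values of that level moved between these 2 libraries. The error of a distance between different genes within a library is not measured by it, so it serves as a scale and not as a test. In the alum pool Ntrk2 and Ngfr were 0.11 apart on the log2(TPM + 1) scale and Ngfr and Bdnf 0.04, both less than the neighbour SD of 0.14. Bdnf lay 1.52 above Ntrk3, Ntrk3 0.78 above Sort1 and Sort1 3.11 above Ntf3, each more than the neighbour SD. In the alum + KLH pool the order of the upper genes was Ntrk2, Bdnf and Ngfr. Ntrk2 and Bdnf were 0.12 apart, within the neighbour SD, while Bdnf and Ngfr were 0.22 apart, more than the neighbour SD of 0.14. The lower part of the order was the same in both pools.

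**Figure D1:**
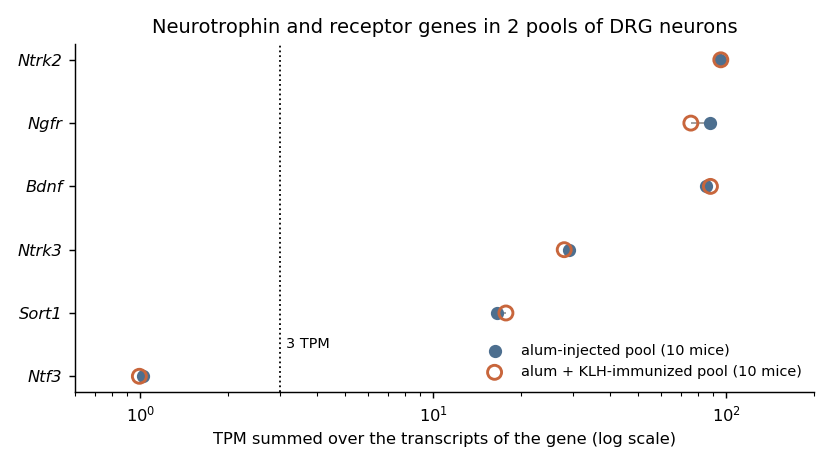
TPM summed over the transcripts of each member gene (log axis) in the alum pool (filled points) and the alum + KLH pool (open points), 10 mice pooled into 1 library each, with no error bars because there are no replicates. The dotted line marks 3 TPM. The 2 points of every gene lie close together, Ngfr has the widest gap of the 5 genes over 3 TPM (87.9 and 75.7 TPM), and Ntf3 alone is left of the line.

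Bdnf, on chromosome 2 of GRCm38 (chr2:109674700-109727007, plus strand), splices one of several first exons to a shared coding exon, and each first exon has a promoter of its own. The files listed 11 Bdnf transcripts, which the annotation places on 8 start sites. Of these, 10 encode an identical precursor of 249 residues, and NM_007540 encodes one of 257 residues that adds 8 at its start. The choice of first exon therefore alters the regulation of the RNA, and for 10 of the 11 rows leaves the protein as it is.

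A single Bdnf row was assigned most of the RNA. In the matched annotation all Bdnf rows share their long last exon (chr2:109723382-109727007), so only the exons before it tell them apart. The shares of rows therefore depend on how the reads of that exon were divided. NM_001285420 was at 53.4 TPM in the alum pool and 57.8 TPM in the alum + KLH pool, which was 62.5% and 65.4% of the Bdnf total. NM_001048141 was next at 18.9 and 17.2 TPM, or 22.2% and 19.5%. Between the pools these rows moved in opposite directions by less than their neighbour SD, with log2 ratios (alum + KLH over alum) of 0.11 beside 0.18 and -0.13 beside 0.25.

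The other Bdnf rows were low. NM_007540, the row with the longer precursor, was at 4.32 and 3.03 TPM, over the detection level in both pools (log2 ratio -0.40, neighbour SD 0.68). NM_001048142 was at 1.13 TPM in the alum pool and 3.06 TPM in the alum + KLH pool, so that it crossed the detection level in the immunized pool alone (log2 ratio 0.93, neighbour SD 0.70). In the alum + KLH pool both rows lay just above the 3 TPM line. NM_001285421 had 2.74 and 1.54 TPM, NM_001048139 had 1.70 and 1.07 TPM, NM_001285422 had 1.48 and 1.29 TPM and NM_001285419 had 1.07 and 1.78 TPM. NM_001285416 was at 0.587 and 0.807 TPM, NM_001285417 at 0 and 0.753 TPM, and NM_001285418 was listed at 0 in both pools. Together the 8 rows other than the leading 3 of the alum pool summed to 8.71 TPM in the alum pool and 10.3 TPM in the alum + KLH pool.

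Grouped by the start site that the annotation gives each row, most of the Bdnf TPM fell on a pair of neighbouring starts. The start at position 109693027, which the annotation gives to both NM_001285420 and NM_001285422, held 54.8 and 59.1 TPM, or 64.3% and 66.9% of the Bdnf total. The start at 109692436, less than a kilobase upstream, held the 22.2% and 19.5% of NM_001048141. The 3 rows that start at 109675897 summed to 2.28 and 1.88 TPM. The first exons of NM_001285420 and NM_001285422 could not be told apart here, because the annotation pairs both with the same transcript. Their values were unlike (53.4 and 1.48 TPM in the alum pool), so the sequences the authors quantified may differ from that transcript. The RefSeq starts at 109709383 and 109722921 matched no row. The start of the leading row, and the shares of its start site, therefore rest on an unresolved match.

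The promoter windows of the annotated starts to which most Bdnf RNA was assigned are shown, 250 bases before to 50 after each start. They come from RefSeq (GRCm38.p6, plus strand) and are in lower case with any match to TNACGTCA in capitals. This motif is a form of the element that binds the cAMP-responsive factor CREB, and Bdnf is a textbook target of CREB. The first is the window of NM_001048141 (chr2:109692186-109692485). The second is that of the start the annotation gives to both NM_001285420 and NM_001285422 (chr2:109692777-109693076).
NM_001048141: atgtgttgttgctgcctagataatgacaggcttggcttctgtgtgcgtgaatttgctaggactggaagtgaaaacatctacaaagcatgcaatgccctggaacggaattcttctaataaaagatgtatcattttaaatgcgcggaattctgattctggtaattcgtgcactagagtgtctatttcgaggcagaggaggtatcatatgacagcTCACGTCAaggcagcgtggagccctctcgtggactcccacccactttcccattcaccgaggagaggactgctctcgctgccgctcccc
NM_001285420: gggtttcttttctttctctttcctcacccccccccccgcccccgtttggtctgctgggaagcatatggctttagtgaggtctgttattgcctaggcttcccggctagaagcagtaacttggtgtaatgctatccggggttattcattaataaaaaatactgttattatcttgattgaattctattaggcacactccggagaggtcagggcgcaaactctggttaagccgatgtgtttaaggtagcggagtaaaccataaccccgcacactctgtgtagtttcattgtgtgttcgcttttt
The window of NM_001048141 held 1 match on either strand, TCACGTCA, starting 38 bases before the transcription start. The window matched to the higher row held none. Among the 7 RefSeq windows of Bdnf, 1 held a match. The motif was found in 2.93% of all 32851 promoter windows of this length. None of the 2 Ntf3 windows, the single Ntrk2 window or the single Ngfr window held a match, and the table gives none for Ntrk3 and Sort1.

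Ntf3 (chr6:126101412-126166910, minus strand) has 3 rows. NM_001164035 and NM_001164034 encode an identical precursor of 271 residues, and NM_008742 encodes the last 258 of these residues. In the alum pool NM_008742 held all of the Ntf3 signal, 1.03 TPM, and in the alum + KLH pool NM_001164035 held all of it, 0.993 TPM. The remaining row, NM_001164034, was listed at 0 in both. The total was level between the pools (log2 ratio -0.02, neighbour SD 0.37) and near 1 TPM. Each row shares most of its sequence with the others: 8.99% of the 31-base words of NM_001164035 and 15.4% of those of NM_008742 occur in no other Ntf3 row.

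The TrkB gene Ntrk2 (chr13:58806569-59133970, plus strand) gave kinase-containing and truncated receptor RNA in nearly equal amounts. The truncated form NM_008745, with 13 exons and 476 residues, was at 45.8 TPM in the alum pool and 45.9 TPM in the alum + KLH pool. The kinase-containing rows NM_001282961 and NM_001025074, with 18 exons and 821 residues each, together had 49.2 and 49.9 TPM. Kinase-containing RNA was thus 51.8% and 52.1% of the Ntrk2 total, 1.07 and 1.09 times the truncated RNA. Since TPM is per length, these are shares of RNA molecules and not of reads. Glia are known for truncated TrkB, and with glial transcripts in both pools the part of neurons and glia in the truncated RNA was not tested.

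Within the kinase-containing pair, the division of TPM differed between the pools while the sum was nearly level. NM_001025074 was at 5.75 TPM in the alum pool and 0.160 TPM in the alum + KLH pool, a log2 ratio of -2.54 beside a neighbour SD of 0.80, with 5.20% of the 500 closest rows as far apart. NM_001282961 was at 43.4 and 49.7 TPM (log2 ratio 0.19, neighbour SD 0.19). The sum of the pair had a log2 ratio of 0.02 (neighbour SD 0.20), and the Ntrk2 total one of 0.01 (neighbour SD 0.14). The 2 rows have identical coding sequence and differ in their ends: in the matched annotation NM_001025074 carries 5620 bases after the coding sequence and NM_001282961 carries 1615. Of the 31-base words of NM_001282961 1.5% are absent from the other Ntrk2 rows, against 49.6% for NM_001025074. Both rows thus stand for the same TrkB receptor.

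The TrkC gene Ntrk3 (chr7:78175959-78738012, minus strand) was weighted toward the kinase form. NM_008746, with 17 exons and 825 residues, was at 23.4 TPM in the alum pool and 22.8 TPM in the alum + KLH pool (log2 ratio -0.04, neighbour SD 0.26). The truncated NM_182809, with 14 exons and 612 residues, was at 5.63 and 5.20 TPM (log2 ratio -0.10, neighbour SD 0.41). Kinase-containing RNA therefore made up 80.6% and 81.4% of Ntrk3 and was 4.17 and 4.38 times the truncated RNA, a balance unlike that of Ntrk2 in both pools. Counting the kinase-containing rows alone, TrkB RNA was 2.10 and 2.19 times TrkC RNA. Proprioceptors are the neurons best known for TrkC. The 7 markers of large neurofilament neurons, 5 of them over 3 TPM, summed to 1729 and 1959 TPM (log2 ratio of the sums 0.18), led by Nefh (1021 and 973.5 TPM), and among them the proprioceptor factor Etv1 was at 172.9 and 232.2 TPM (log2 ratio 0.42) while Ntrk3 had a log2 ratio of -0.05. The widest ratios of that list were those of Spp1 (196.1 and 352.4 TPM, 0.84) and of the proprioceptor marker Pvalb (80.4 and 114.3 TPM, 0.50), both chosen after their values were seen. Of the 5 over 3 TPM, 4 had positive log2 ratios and Nefh a negative one (-0.07), beside 43.6% of all genes over 3 TPM that were higher. The list's genes under 3 TPM, Runx3 (2.83 and 2.48 TPM, -0.14) and Whrn (0.585 and 0.572 TPM, -0.01), were lower in the alum + KLH pool. Of the 4 markers of D-hair touch neurons, a TrkB class, 1 was over 3 TPM, Ntng1 at 50.1 and 46.2 TPM (log2 ratio -0.11). The others went both ways under 3 TPM: Cacna1h (1.86 and 1.43 TPM, -0.24), Colq (0.988 and 1.155 TPM, 0.12) and Necab2 (1.48 and 1.81 TPM, 0.18). The part of these classes in the receptor levels was not tested.

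**Figure D2:**
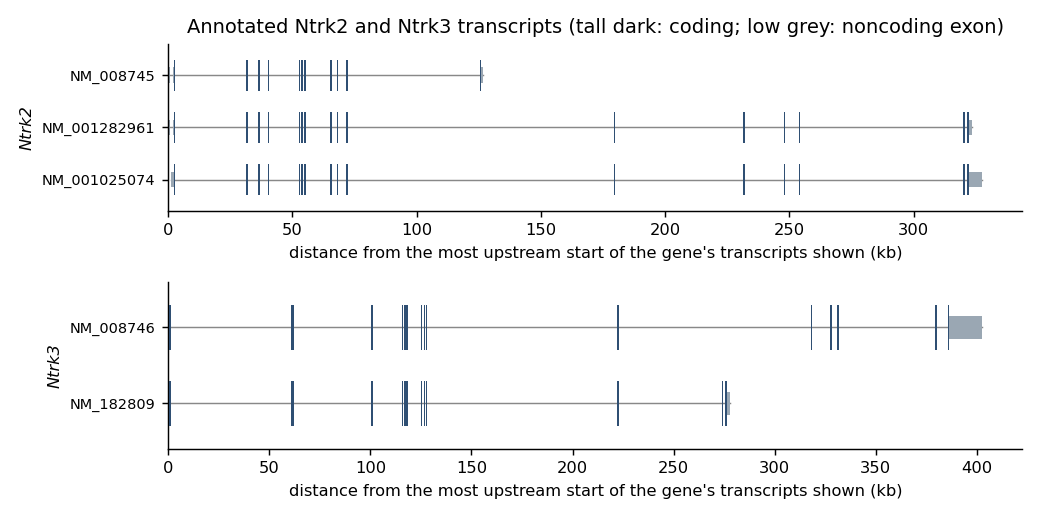
Exons of the annotated Ntrk2 (3 rows) and Ntrk3 (2 rows) transcripts against the distance in kilobases from the most upstream start shown; tall dark blocks are coding and low grey blocks noncoding, and every exon is drawn at least 0.6 kb wide. The truncated forms NM_008745 and NM_182809 stop before the downstream exons that encode the kinase, and NM_001025074 differs from NM_001282961 at its ends alone.

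Ngfr (chr11:95568818-95587735, minus strand) has 1 row, NM_033217, with 6 exons and 427 residues, so its level is not divided among forms. It was at 87.9 TPM in the alum pool and 75.7 TPM in the alum + KLH pool, 1.16-fold higher in the alum pool (log2 ratio -0.21). Ngfr was the only one of the 5 detected members farther apart than its neighbour SD (0.14), where 17.1% of all gene totals over 3 TPM in a pool were, and 7.40% of the 500 gene totals closest in level were as far apart. Sensory neurons and glia both make p75. Of the 6 neuron markers, 4 had negative log2 ratios and 2 positive ones, with a median of -0.07. On TPM as deposited all 6 satellite glia markers had negative log2 ratios, from -0.52 (Apoe) to -0.01, with a median of -0.04. Of all genes over 3 TPM 43.6% were higher in the immunized pool, and the median was -0.02. The ratio of the sums was -0.004 for neuron markers, -0.10 for satellite glia markers and -0.02 for Schwann cell markers. The part of neurons and of glial cells in the Ngfr difference was not tested. In pooled cells, fewer cells of a type and less RNA per cell cannot be told apart.

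Set against the kinase receptors, p75 RNA was of the same order. Ngfr was 1.21 times the summed kinase-containing Ntrk2 and Ntrk3 RNA in the alum pool and 1.04 times in the alum + KLH pool. It was 5.32 and 4.28 times the RNA of its co-receptor sortilin. Bdnf RNA (85.3 and 88.3 TPM) was 0.899 and 0.922 times the total RNA of its receptor gene Ntrk2, truncated form included. It was above the kinase-containing Ntrk2 RNA alone (49.2 and 49.9 TPM).

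Sort1 (chr3:108284082-108361511, plus strand) was mostly the form without the 99-base exon. NM_019972, which encodes 825 residues, was at 15.5 TPM in the alum pool and 15.0 TPM in the alum + KLH pool (log2 ratio -0.04, neighbour SD 0.33). NM_001271599, which encodes 858 residues, was at 1.06 and 2.72 TPM (log2 ratio 0.85, neighbour SD 0.91), under the detection level in both. The exon-containing share was thus 6.43% and 15.4% of Sort1, 8.93 percentage points apart, on a row whose difference was within the spread of rows of its level. The rows share nearly all their sequence, with 1.36% of the 31-base words of NM_019972 and 1.94% of those of NM_001271599 found in that row alone.

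**Figure D3:**
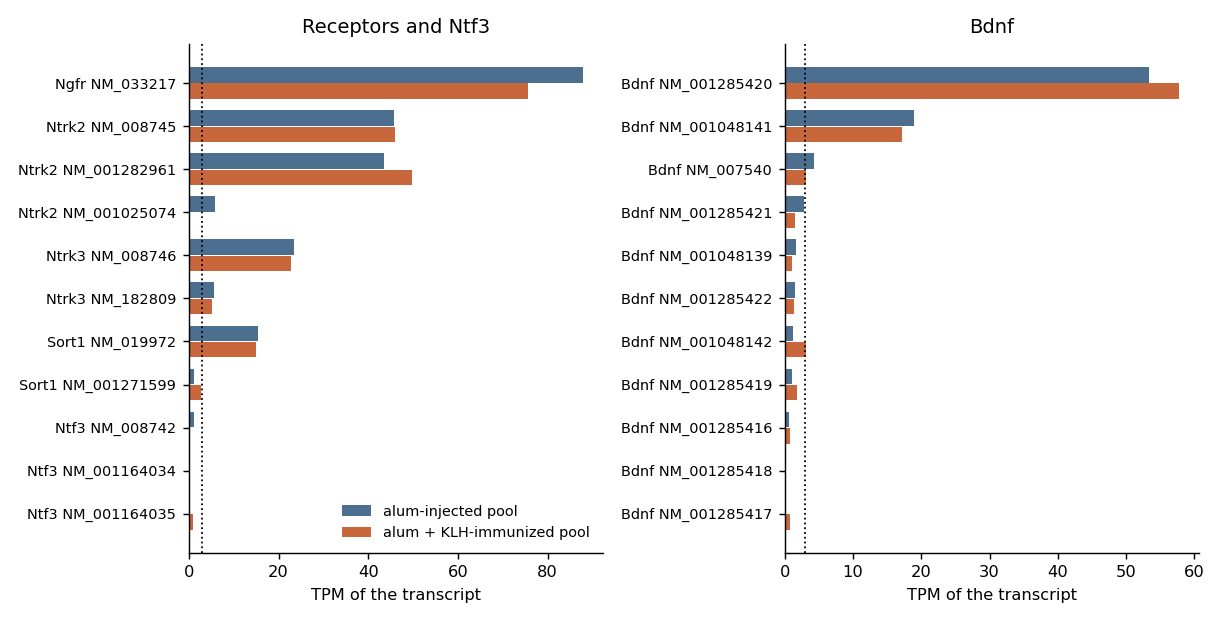
TPM of each member transcript in the alum pool (blue bars) and the alum + KLH pool (orange bars), with Bdnf in the panel on the right; the dotted lines mark 3 TPM and there are no replicates to give error bars. NM_001025074 is the lowest Ntrk2 row in both pools and nearly vanishes in the alum + KLH pool (5.75 and 0.160 TPM), the Ntf3 signal stands on a different row in each pool, and NM_001285420 holds most of Bdnf in both.

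Between the pools, none of the 5 detected gene totals was 2-fold apart, or even 1.5-fold, where 1.64% of the 11648 gene totals over 3 TPM in at least 1 pool were at least 2-fold apart and 2.56% at least 1.5-fold. The ratios of the members ran from -0.21 for Ngfr to 0.09 for Sort1 (neighbour SD 0.32) on the log2 scale, through -0.05 for Ntrk3 (neighbour SD 0.18), 0.01 for Ntrk2 and 0.05 for Bdnf (neighbour SD 0.14). On TPM as deposited 3 were higher in the alum + KLH pool and 2 lower (relative to Hprt the signs of Bdnf and Ntrk2 flip), with a median log2 ratio of 0.01, against -0.02 over all 11648 genes, of which 43.6% were higher. A 0 of 5 beside a background of 1.64% says little about the members as a group. Relative to the housekeeping gene Hprt, which lowers the median of all genes to -0.10, Bdnf came to -0.03 and Ntrk2 to -0.07.

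**Figure D4:**
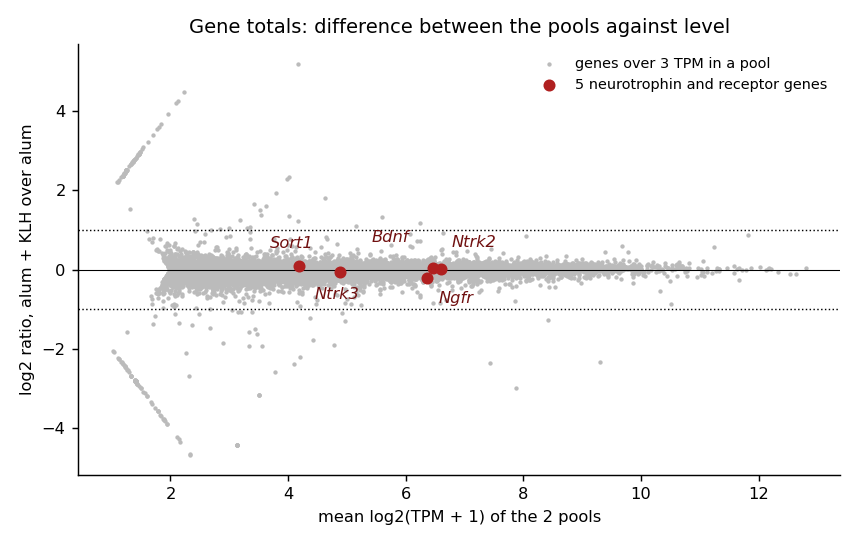
Log2 ratio of the gene totals (alum + KLH over alum, 1 TPM added) against the mean log2(TPM + 1) of the pools for the 11648 genes over 3 TPM in at least 1 pool (grey) and the 5 detected members (red); dotted lines mark 2-fold. The members lie between -0.21 and 0.09, inside the band of genes of their level.

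By single transcript, 11 of the 22 member rows were over 3 TPM in at least 1 pool, 10 in each pool and 9 in both. Of these 11 rows 1, the Ntrk2 row NM_001025074, was at least 2-fold apart, beside 4.65% of all 14215 such rows in either direction and 2.79% in its own, lower in the alum + KLH pool. At 0 were 4 rows in the alum pool and 3 in the alum + KLH pool. Of the 4 members with several rows and a detected one, 1 (Ntrk2) held a row 2-fold apart under a gene total less than 1.5-fold apart, and the same held for 9.15% of 3378 such genes.

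Genes that work with these receptors were read from 8 lists of 76 gene symbols, of which 75 were in the files. The missing symbol, Bex3, is another name of the listed Ngfrap1. Over 3 TPM in at least 1 pool were 57, and none of these was 2-fold or 1.5-fold apart on the TPM + 1 scale, beside the 1.64% and 2.56% of all genes (without the added 1 TPM, Vgf was past 1.5-fold, at 17.3 and 11.5 TPM). Their median log2 ratio was -0.01 (0.01 once the pools are scaled to the same median), with 25 higher and 32 lower in the alum + KLH pool on TPM as deposited. Of all genes over 3 TPM 43.6% were higher, and the median was -0.02. The further TrkB ligand gene Ntf5 was under the detection level, at 0.105 and 0.120 TPM.

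Among other receptors of the sortilin family and partners of p75, 5 of 8 genes were over 3 TPM, with a median log2 ratio of -0.05. Kidins220, a scaffold that binds Trk receptors and p75, was highest at 182.8 and 183.9 TPM, level between the pools. The ends of the range were Lingo1, a co-receptor of p75 (7.15 and 6.34 TPM, log2 ratio -0.15), and the sortilin relative Sorcs1 (18.4 and 20.1 TPM, 0.12). Of the intracellular effectors of p75, all 10 were detected, with a median of -0.06. The GTPase Rhoa was highest at 339.8 and 321.5 TPM. Its inhibitor Arhgdia had the lowest ratio (68.6 and 61.3 TPM, -0.16 beside a neighbour SD of 0.14) and the ubiquitin ligase Traf6 the highest (13.9 and 14.6 TPM, 0.07).

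Of the adaptors and first effectors of Trk receptors, 14 of 18 were over 3 TPM, with a median log2 ratio of -0.03. The adaptor Crk was highest, at 171.0 TPM in both pools. Plcg1, the phospholipase that docks on activated Trk receptors, had the lowest ratio (5.65 and 4.34 TPM, -0.31 beside a neighbour SD of 0.23). The adaptor Irs1, close to the detection level, had the highest (2.75 and 3.04 TPM, 0.11). In the list for endosomal traffic and ubiquitin ligases, which carry and retire activated receptors, 10 of 11 genes were detected, with a median of -0.03. Rab11a, a GTPase of recycling endosomes, led at 954.4 and 1040 TPM (0.12), Gipc1, an adaptor of receptor traffic, was lowest in ratio (6.62 and 5.33 TPM, -0.27 beside 0.22) and the actin-binding Coro1a highest (14.1 and 15.6 TPM, 0.14).

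Of the proteases that cut neurotrophin precursors or shed their receptors, 7 of 13 were detected, with a median log2 ratio of 0.08. Among them 6 had positive log2 ratios and 1 a negative one, beside 43.6% of all genes over 3 TPM that were higher. Each of the 7 ratios was within its neighbour SD. The carboxypeptidase gene Cpe, which also sorts the BDNF precursor into secretory granules, was by far the highest at 1609 and 1703 TPM (0.08). The prohormone convertase Pcsk1 had the highest ratio (153.3 and 169.0 TPM, 0.14) and Plat, the tissue plasminogen activator, the lowest (12.4 and 11.8 TPM, -0.07). Furin, a convertase known to cut the precursors, was under 3 TPM at 1.95 and 1.74 TPM, and Mmp7 was listed at 0 in both pools. Furin and Mmp7 were chosen after their values were seen.

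The widest ratios stood among transcription factors of the sensory classes and genes that neurotrophins are known to induce. Of the transcription factors 7 of 9 were detected, with a median log2 ratio of 0.07, led by the pan-sensory Pou4f1 (278.0 and 290.5 TPM, 0.06). Etv1, which proprioceptors need, had a log2 ratio of 0.42 beside a neighbour SD of 0.21. Klf7, known to act on Trk receptor genes in sensory neurons, was at 52.3 and 40.8 TPM, -0.35 beside 0.13. Of the 5 inducible genes 4 were detected, with a median of -0.24. Egr1 was highest at 149.3 and 142.0 TPM (-0.07), the neuropeptide precursor gene Vgf was lowest in ratio (17.3 and 11.5 TPM, -0.56 beside 0.24) and Egr3 highest (14.7 and 15.4 TPM, 0.07). Over all lists, 12 of the 57 detected genes were farther apart than their neighbour SD, beside the 17.1% of all genes in either direction. Of these 12 genes, 3 were higher and 9 lower in the alum + KLH pool on TPM as deposited, and the share of all genes by direction was not counted. Besides those given above they included Nr4a1 (8.12 and 5.86 TPM, -0.41 beside 0.22), Maf (40.4 and 47.8 TPM, 0.24 beside 0.13) and Shox2 (49.1 and 56.5 TPM, 0.20 beside 0.12), which were chosen after their values were seen.

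**Figure D5:**
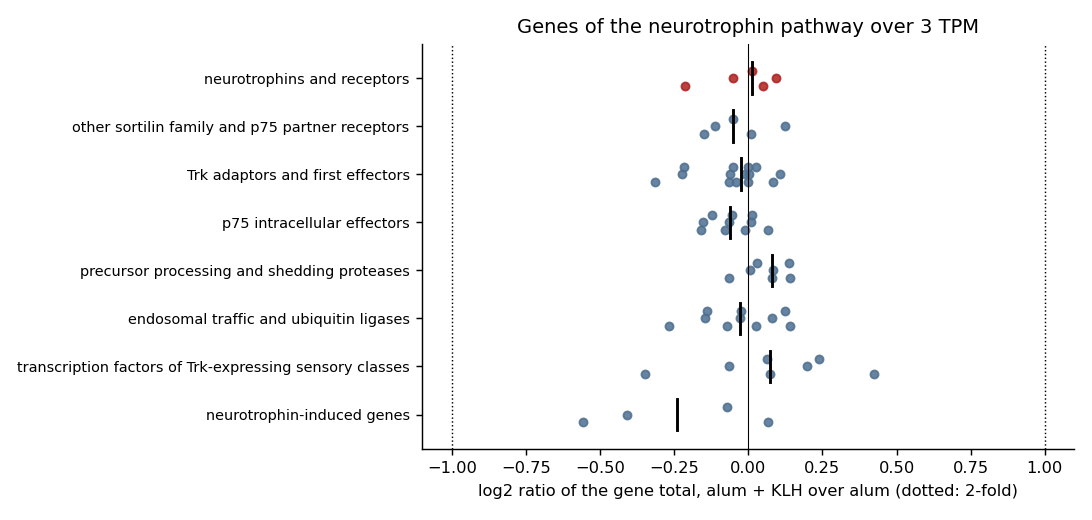
Log2 ratio of the gene total (alum + KLH over alum, 1 TPM added) of each gene over 3 TPM in at least 1 pool, for the members (red) and the pathway lists with such genes (blue); black bars are medians and dotted lines mark 2-fold. All points lie inside the 2-fold lines, from Vgf at -0.56 to Etv1 at 0.42.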

How the data were processed

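Neuron preparations from pooled DRGs were sequenced as 1 library per group. The authors prepared stranded mRNA libraries, converted and trimmed the paired-end reads with bcl2fastq and cutadapt and quantified them with kallisto against the mm10 transcriptome. The versions of these tools are not given in the sources used here. Each RefSeq transcript has a TPM value in the deposited files. TPM keeps no read counts, so the files do not give the depth behind a value and no counting interval was computed. Where transcripts share sequence, kallisto divides their reads by likelihood, and a difference between such rows can come from that division.

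Rows were summed per gene symbol. The pools were compared by the log2 ratio of their TPM, alum + KLH over alum, after adding 1 TPM to each, which understates changes of low rows. These ratios were set beside the SD over the 500 closest gene totals (or rows). Detected means over 3 TPM. All 22 member rows were matched to GENCODE M21 (GRCm38, the assembly of mm10) through its RefSeq table, so transcript ends may differ from those the authors used. Words of 31 bases were compared between transcripts. Promoters came from RefSeq. Python 3.11.15, numpy 2.4.6, pandas 2.3.3 and matplotlib 3.10.9 were used. The ratio and neighbour SD were tested on simulated gene totals over 10 TPM with equal noise at every level. For the SD the changed genes were set to no change. That check does not cover low rows or rows that share reads. Named were all members and, of each pathway list, the gene with the highest TPM in the alum pool and those with the highest and lowest ratio over 3 TPM, and of each marker list its highest gene. The members and lists were chosen with earlier results of these data known. Alternatives were other pseudocounts (0.1 and 0.5 TPM), thresholds (1 and 10 TPM), a 1.5-fold limit, no filter, rescaling by the median ratio or Hprt, protein-coding rows, rows above 0.1 TPM, the highest transcript of each gene and single rows.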

Additional observations from a re-analysis of the deposited data

How the results depend on the processing

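No paired analysis was possible because each group has 1 library, and for the same reason no replicate could be left out. Of 83 values recomputed under the alternatives, 78 stayed within the limit set for them. The limit was an SD for log2 ratios, 1.5-fold for counts and 1 percentage point for shares. Counts such as 15 detected rows in place of 10 fall within it. The shares could not change when only rows above 0.1 TPM were kept, because every member row above 0 exceeds 0.1 TPM in a pool. At a threshold of 1 TPM, 17 member rows were detected in the alum pool and 15 in the alum + KLH pool, in place of 10 in each. With the highest transcript in place of the sum, the log2 ratio of Ntf3 was -1.02 in place of -0.02 and that of Ntrk2 0.19 in place of 0.01, and counted by single rows 1 member in place of 0 was at least 2-fold apart. The ratio of NM_001025074 was -4.49 with a pseudocount of 0.1 TPM in place of -2.54. By the highest transcript, 13 of the 15 gene pairs in the alum pool and 12 in the alum + KLH pool kept their order, and Ngfr (87.9 and 75.7 TPM) led in place of Ntrk2 (43.4 and 49.7 TPM), so the rank of Ntrk2 depends on summing. Some small ratios changed sign: relative to Hprt, Bdnf was at -0.03 and Ntrk2 at -0.07, and Sort1 was at -0.04 by its highest transcript. Ngfr stayed lower in the alum + KLH pool under every alternative run, from -0.30 to -0.19. For Ngfr only the rescalings could have changed the sign. It has 1 row, so its highest transcript repeats its sum, and a pseudocount cannot reverse the order of the pools. TPM without read counts and 1 pool per group limit every ratio, those of rows near or under 3 TPM most.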
